A study of Mus musculus with 6 samples.

Results

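Glycolysis and the response to low oxygen were examined through 34 genes taken by symbol from the 21999 genes of the deposited table: the glucose and lactate transporters Slc2a1 and Slc16a3, 16 glycolytic enzymes, 3 enzymes that regulate the flow of sugar, 4 genes of oxygen sensing and 9 genes known to respond to low oxygen. They were named by what they do. All 34 were in the table and all 34 passed the filter on low counts, among 13609 genes tested.

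Total RNA had been sequenced from lung microvascular endothelial cells (LMVEC), the cells lining the small vessels of the lung, of mice with (Ptprz1+/+) or without (Ptprz1-/-) protein tyrosine phosphatase receptor zeta 1, a transmembrane receptor for the growth factor pleiotrophin. Both genotypes were of the SV129/B6 strain. Each of the 3 isolations per genotype pooled the lungs of 2 to 5 mice aged 3 to 8 weeks, and the cells were selected with magnetic beads carrying an antibody to CD31 and grown to confluence in serum with heparin and endothelial growth supplement. No treatment was applied, so low oxygen was not among the conditions compared; the question was the effect of the receptor's loss.

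When oxygen is plentiful, prolyl hydroxylases (the Egln genes) mark the alpha subunits of hypoxia-inducible factor, encoded by Hif1a and Epas1, for destruction. When it is scarce the subunits persist, pair with a partner and switch on genes for glucose uptake, nearly every glycolytic step and the export of lactate. Endothelial cells are known to make most of their ATP by glycolysis even in oxygen, and Epas1 (HIF-2 alpha) takes its name from endothelial cells.

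The factor binds the letters ACGTG or GCGTG. Promoter sequences (RefSeq, GRCm38.p6, the 250 bases before the start, 1 window per gene, at the first start listed) were matched for 32 of the 34 genes, all but Epas1 and Ndrg1. ACGTG, or CACGT on the other strand, was in 16 of the 32 windows and in 16.6% of all 27025 windows. GCGTG, or CACGC, was also in 16 of 32, against 28.2% of all windows. Either was in 25 of 32 (78.1%), against 38.6%. Only these letters were searched, on both strands, and a palindrome CACGTG counts once per strand. A match describes the sequence and is not a bound site. The 34 genes were named for known roles in these pathways, and the windows of all genes were not matched to theirs in base content. Below are 4 windows, chosen to show the range: Ldha with 5 matches to ACGTG and Pgk1 with 2, enzymes that were lowest in the same libraries, Tpi1, an enzyme of that same pattern with no match, and Adm, with 2 matches to GCGTG and another pattern. Capitals mark the matches and each runs 5′ to 3′ on the strand of its gene.
Ldha, chr7:46845554-46845803, plus strand: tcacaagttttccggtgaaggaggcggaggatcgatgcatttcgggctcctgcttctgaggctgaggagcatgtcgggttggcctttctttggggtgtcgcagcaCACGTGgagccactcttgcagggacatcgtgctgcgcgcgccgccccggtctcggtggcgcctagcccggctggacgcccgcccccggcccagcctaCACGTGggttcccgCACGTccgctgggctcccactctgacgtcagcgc
Pgk1, chrX:106186850-106187099, plus strand: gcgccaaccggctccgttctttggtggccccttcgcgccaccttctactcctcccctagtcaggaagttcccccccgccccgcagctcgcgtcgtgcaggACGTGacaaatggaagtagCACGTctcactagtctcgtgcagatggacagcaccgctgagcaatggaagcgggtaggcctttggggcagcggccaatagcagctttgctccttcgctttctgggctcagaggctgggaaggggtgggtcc
Tpi1, chr6:124814159-124814408, minus strand: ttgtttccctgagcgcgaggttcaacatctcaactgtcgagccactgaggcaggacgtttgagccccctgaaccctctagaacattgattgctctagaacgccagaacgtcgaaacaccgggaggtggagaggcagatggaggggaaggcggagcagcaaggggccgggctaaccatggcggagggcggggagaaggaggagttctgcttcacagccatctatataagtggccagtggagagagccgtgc
Adm, chr7:110627407-110627656, plus strand: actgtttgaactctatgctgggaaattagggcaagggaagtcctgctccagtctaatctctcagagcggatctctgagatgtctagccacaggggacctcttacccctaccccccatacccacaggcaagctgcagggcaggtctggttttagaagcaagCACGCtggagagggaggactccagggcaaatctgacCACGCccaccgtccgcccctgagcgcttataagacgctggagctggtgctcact

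The libraries held 14496881 to 17709663 counted reads. Counts of Ptprz1 did not separate the genotypes: they came to 11.9, 101 and 32.1 CPM (read counts brought to 1 library size, with sizes scaled by the TMM method) in Ptprz1+/+ libraries 1 to 3 and 70.6, 90.6 and 59.1 CPM in the libraries labelled Ptprz1-/- 1 to 3. The exons deleted are not given in the sources used here, so every direction between genotypes rests on the labels. Where 2 runs of 3 values follow each other, the first is Ptprz1+/+ 1 to 3 and the second Ptprz1-/- 1 to 3. Markers went against a pure endothelial culture. The summed CPM of 12 endothelial markers was 139, 99.1 and 708 in Ptprz1+/+ 1 to 3 and 88.0, 139 and 274 in Ptprz1-/- 1 to 3, with Pecam1, the gene of the selected CD31, at 3.81, 4.40 and 91.0 and 1.36, 1.51 and 32.4 CPM. The sum of 10 fibroblast markers was 27504, 25293 and 34965, and 20945, 21779 and 34879. Both sums were highest, within each genotype, in the library numbered 3, as were 10 of the 12 endothelial and 4 of the 10 fibroblast markers singly. In bulk RNA, fewer cells of a type and less RNA per cell cannot be told apart.

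No gene of the set passed the test between genotypes. In edgeR's quasi-likelihood test, 0 of the 34 genes had an adjusted p under 0.05 (Benjamini-Hochberg over all 13609 genes, of which 0% were called), and the adjusted p was 1.00 for each. At an unadjusted p under 0.05 there was 1 of 34, Epas1, beside 2.69% of all genes. Limma voom called 0 of the 34 as well. So did DESeq2, which called 30 genes elsewhere, and the likelihood ratio form of the edgeR test, which called 17. In none of the 34 did the 3 libraries of one genotype lie wholly apart from those of the other. Over all genes, 3.73% had the 3 Ptprz1-/- libraries all lower and 3.55% all higher.

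The fitted log2 fold change (Ptprz1-/- against Ptprz1+/+) was below 0 for 28 of the 34 genes, beside 50.9% of all genes, with a median of -0.13 beside -0.0047. That median rested on single libraries. It was 0.055 without Ptprz1+/+ 2, with 11 of the 34 below 0, and -0.37 without Ptprz1+/+ 3. The 95% interval lay within -1 and 1 on the log2 scale for 16 of the 34 genes, against 63.6% of all genes, so for the other 18 a change of 2-fold in at least 1 direction lay within the interval.

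**Figure D1:**
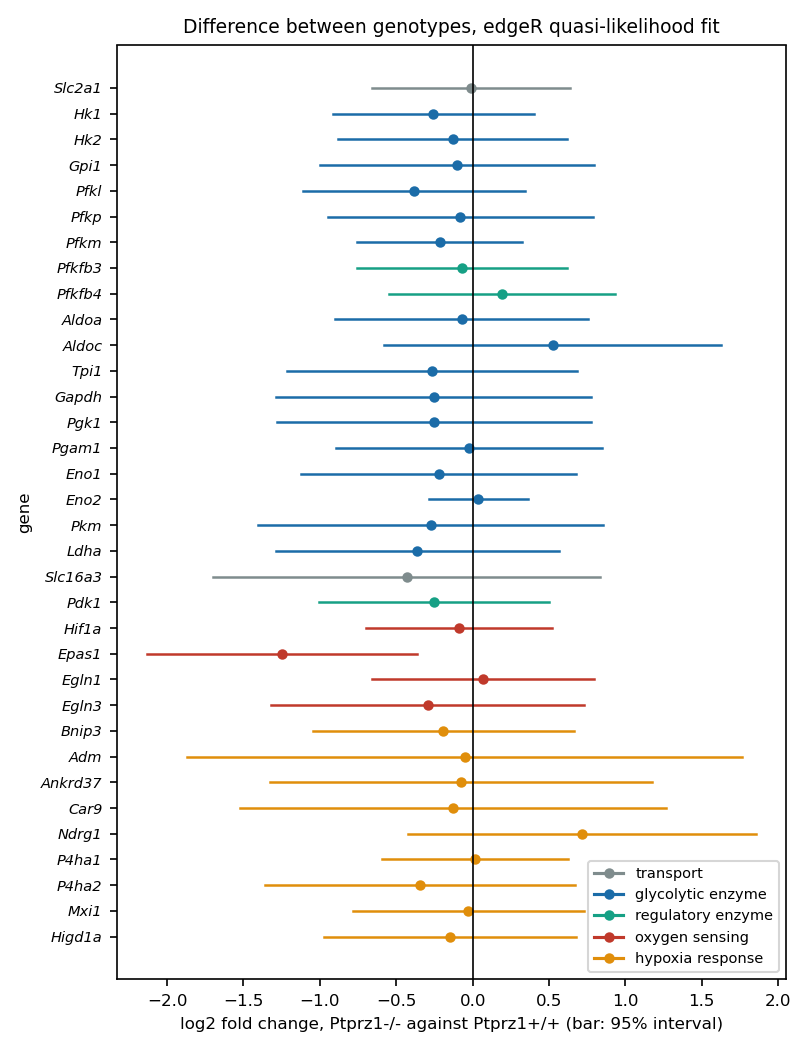
Log2 fold change of each of the 34 genes, Ptprz1-/- against Ptprz1+/+ (horizontal axis), as points with 95% intervals from edgeR's quasi-likelihood fit (3 libraries per genotype), coloured by role. The interval of Epas1, -2.13 to -0.37, is the only 1 of the 34 that leaves out 0, before any adjustment for the number of genes.

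What the genes shared was a pattern over the libraries within each genotype, described after the values were seen and not tested. In 28 of 34 the library numbered 3 was the lowest of its genotype both in Ptprz1+/+ and in Ptprz1-/-, which held for 16.3% of all genes tested. By role these were both transporters, 14 of 16 glycolytic enzymes, 2 of 3 regulatory enzymes, 3 of 4 genes of oxygen sensing and 7 of 9 hypoxia-response genes. Ptprz1+/+ 2 held the highest of the 6 values for 20 of the 34, beside 26.9% of all genes, and Ptprz1+/+ 3 the lowest for 23, beside 15.2%. The summed CPM of the 16 glycolytic enzymes was 14280.0, 18828 and 7749 in Ptprz1+/+ 1 to 3 and 13934, 13077 and 7931 in Ptprz1-/- 1 to 3. The means of this sum, 13619 ± 5569 and 11647 ± 3247 CPM (SD, n = 3 each), differed by less than either SD. As a share of all counts, the 34 genes took 1.75%, 2.28% and 0.985% in Ptprz1+/+ 1 to 3, and 1.75%, 1.55% and 1.08% in Ptprz1-/- 1 to 3.

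Other markers moved over the same libraries. Each of 10 proliferation markers was highest in Ptprz1+/+ 2, the library in which most enzymes were highest, and their sum was 194, 865 and 119 CPM in Ptprz1+/+ 1 to 3 and 235, 124 and 149 CPM in Ptprz1-/- 1 to 3. The endothelial and fibroblast sums given above were highest in the libraries numbered 3, where most of the 34 genes were lowest. Singly, 10 of the 12 endothelial but only 4 of the 10 fibroblast markers were highest there within both genotypes. The smooth muscle and pericyte markers summed to 3735, 402 and 1289, and 4077, 834 and 895 CPM, most of it Acta2 and Tagln. These, with Myh11, Cnn1 and Des, were highest in the libraries numbered 1 of both genotypes. Rgs5, Cspg4 and Notch3 were not, and Notch3 was highest in those numbered 3 (24.5, 25.1 and 106, and 21.3, 22.7 and 51.4 CPM). The mesothelial markers summed to 217, 55.8 and 90.7, and 1379.5, 115 and 279 CPM. The 4 of 6 leukocyte markers in the table summed to 10.4 to 49.8 CPM over the 6 libraries and 6 epithelial markers to 0.961 to 3.78 CPM. The part of any of these in the levels of the 34 genes was not tested.

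**Figure D2:**
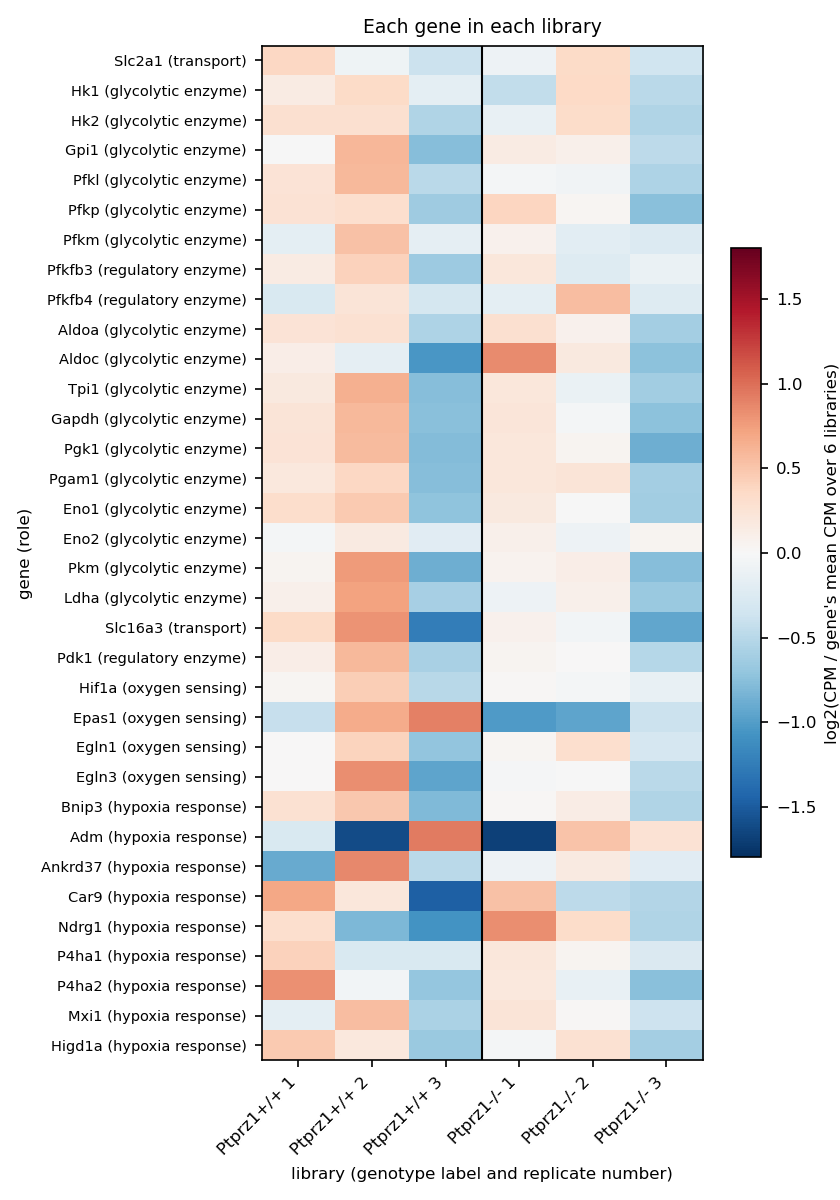
Level of each of the 34 genes (rows, with role) in each of the 6 libraries (columns), as the log2 of its CPM over its own mean CPM of the 6 libraries, red above and blue below. The columns numbered 3 are blue in both genotypes for most genes, the second Ptprz1+/+ column is mostly red, and the rows of Epas1 and Adm run otherwise.

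The spread within genotypes was wider than that of most genes. The coefficient of variation within a genotype, averaged over both, had a median of 33.2% for the 34 genes and 19.2% for all genes tested. It was 17.7% for the 12336 genes within the same range of mean CPM. That range takes in most of the 13609 genes tested, so those genes are not matched in level to the 34. From the lowest to the highest library the median gene of the set varied 2.26-fold, and the median of all genes 1.71-fold. Eno2 (coefficient 9.57%), Hif1a (18.4%) and Pfkm (20.9%) varied least, and Adm (69.7%), Car9 (52.7%) and Ndrg1 (49.2%) varied most.

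Uptake of glucose and export of lactate were represented by 1 transporter each. Slc16a3 (MCT4), which carries lactate out of the cell, measured 307, 426 and 102 CPM in Ptprz1+/+ 1 to 3 and 257, 235 and 127 CPM in Ptprz1-/- 1 to 3. Both genotypes had their lowest value in library 3, the 3 Ptprz1-/- values lay inside the Ptprz1+/+ range, and the log2 fold change was -0.43 (SE 0.53, unadjusted p = 0.441, edgeR). Slc2a1 (GLUT1), the glucose transporter, varied less, from 235 to 397 CPM, with a log2 fold change of -0.0100 (SE 0.27).

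The first step was split between isoenzymes. Hexokinase traps glucose in the cell as its phosphate: Hk1 measured 191, 219.8 and 153 CPM in Ptprz1+/+ 1 to 3 and 127, 221 and 123 CPM in Ptprz1-/- 1 to 3, and Hk2 measured 255, 254 and 143, and 190.3, 262 and 143 CPM. Per length the pair were nearly even. Hk1 made up 49.1, 52.7 and 58.0% of their summed FPKM (the deposited unit, which divides by gene length and so allows genes to be compared) in Ptprz1+/+ 1 to 3 and 46.3, 52.1 and 52.7% in Ptprz1-/- 1 to 3. Neither passed the test, with log2 fold changes of -0.26 (SE 0.27, unadjusted p = 0.381, edgeR) for Hk1 and -0.13 (SE 0.31) for Hk2.

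Phosphofructokinase, which commits sugar to glycolysis, was mainly the liver-type gene Pfkl. Its level was 406, 509.5 and 243 CPM in Ptprz1+/+ 1 to 3 and 331, 325 and 231 CPM in Ptprz1-/- 1 to 3. The Ptprz1-/- values lay in the lower part of the range, but Ptprz1+/+ 3 was lower than 2 of the 3, and the log2 fold change was -0.38 (SE 0.30, unadjusted p = 0.247, edgeR). Pfkl took 71.0% to 77.2% of the family's summed FPKM over the 6 libraries. The platelet-type gene Pfkp measured 87.4, 90.1 and 46.8, and 94.97, 74.3 and 43.0 CPM, and the muscle-type gene Pfkm 38.4, 62.2 and 38.7, and 45.7, 38.0 and 36.3 CPM. Pfkm was among the 3 steadiest genes of the set. Its Ptprz1+/+ 3 value was low too, but Ptprz1+/+ 1 lay just below it. The log2 fold change of Pfkm was -0.22 (SE 0.22, unadjusted p = 0.370, edgeR). Exons of Pfkp overlap those of Pitrm1, on the other strand, over 748 bases (5.58% of its exon bases). The sources used here do not state whether counting used the strand. Larger shares were overlapped on the other strand in, among others, Ankrd37 (22.7%), Higd1a (22.5%), Bnip3 (22.3%) and Gpi1 (11.5%). On the same strand they were overlapped in Pkm (15.3%) and Pfkm (10.2%). The effect of these overlaps on the counts was not tested.

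Of the bifunctional enzymes that make and break fructose 2,6-bisphosphate, the main activator of phosphofructokinase, Pfkfb3 prevailed. Pfkfb3 measured 109, 132 and 62.7 CPM in Ptprz1+/+ 1 to 3 and 115, 84.1 and 91.1 CPM in Ptprz1-/- 1 to 3. Pfkfb4 measured 5.98, 8.47 and 5.80, and 6.39, 10.6 and 6.14 CPM. Pfkfb3 took 83.7% to 92.2% of their summed FPKM, lowest in Ptprz1-/- 2, where Pfkfb4 was at its highest. Pdk1, the kinase that inhibits pyruvate dehydrogenase and so keeps pyruvate from becoming acetyl-CoA, ranged from 73.3 to 164 CPM, and both extremes were Ptprz1+/+ libraries. Its log2 fold change was -0.25 (SE 0.31).

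Aldolase splits the sugar, and nearly all its message was Aldoa. Aldoa measured 1999.8, 2046 and 1146 CPM in Ptprz1+/+ 1 to 3 and 2054, 1778 and 1109 CPM in Ptprz1-/- 1 to 3, and took 98.8% to 99.4% of the pair's FPKM. Aldoc, best known as the brain form, measured 25.9, 21.3 and 11.6, and 43.2, 27.0 and 14.3 CPM. It was one of 6 genes of the set with a log2 fold change above 0 (0.52, SE 0.46, unadjusted p = 0.294, edgeR), with Pfkfb4, Eno2, Egln1, Ndrg1 and P4ha1. The highest value of Aldoc, in Ptprz1-/- 1, was more than 3 times that in Ptprz1-/- 3, and the genotypes overlapped.

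By the median FPKM of the 6 libraries, Gapdh, which oxidises glyceraldehyde 3-phosphate, led the set at 1915, followed by Aldoa (1175), Pkm (1010.4), Ldha (688), Eno1 (612), Pgk1 (501) and Tpi1 (453). Neighbours in this order overlapped in their ranges over libraries. Ldha, which turns pyruvate into lactate, measured 1309, 2042 and 815 CPM in Ptprz1+/+ 1 to 3 and 1153, 1310.0 and 776 CPM in Ptprz1-/- 1 to 3. The libraries numbered 3 were the lowest of both genotypes, Ptprz1+/+ 2 was the highest of all, and the log2 fold change was -0.36 (SE 0.38, unadjusted p = 0.379, edgeR). Gapdh followed it, at 3079, 3959 and 1561, and 3064, 2562 and 1578 CPM, a 2.54-fold range in a gene often used as a reference of constant level.

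Pkm, the pyruvate kinase, measured 2496, 4094 and 1314 CPM in Ptprz1+/+ 1 to 3 and 2505, 2612 and 1421 CPM in Ptprz1-/- 1 to 3. The triose isomerase Tpi1 measured 434 to 1144 CPM, the phosphoglycerate kinase Pgk1 465 to 1269 CPM, the mutase Pgam1 169 to 375 CPM and the hexose isomerase Gpi1 398 to 1032 CPM, each highest in Ptprz1+/+ 2 and lowest in a library numbered 3. Enolase, the step before pyruvate kinase, had 1 form outside the pattern. Eno1 measured 1467, 1628 and 716, and 1326, 1176 and 763 CPM. Eno2, the form known from neurons, measured 71.8, 82.0 and 63.9, and 78.6, 69.0 and 75.8 CPM, the narrowest range of the set at 1.28-fold, and Ptprz1-/- 3 was not its lowest. Its share of the pair's FPKM was thus largest in the libraries numbered 3, at 6.08% and 6.72%, and 3.43% to 4.12% in the other 4. Eno1 is counted beside the near-identical gene Eno1b (99.48% over 1736 bases). Eno1b and 1 other copy held 24.97% to 26.03% of the summed counts, so the level of Eno1 is uncertain. For the other genes with copies in the table that share was at most 1.46%. Copies outside the table, such as Gm6560 for Pkm (98.37% over 1593 bases), are not in it. How reads that fit both a gene and its copy were counted is not stated, so a small share does not show a level free of copies.

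**Figure D3:**
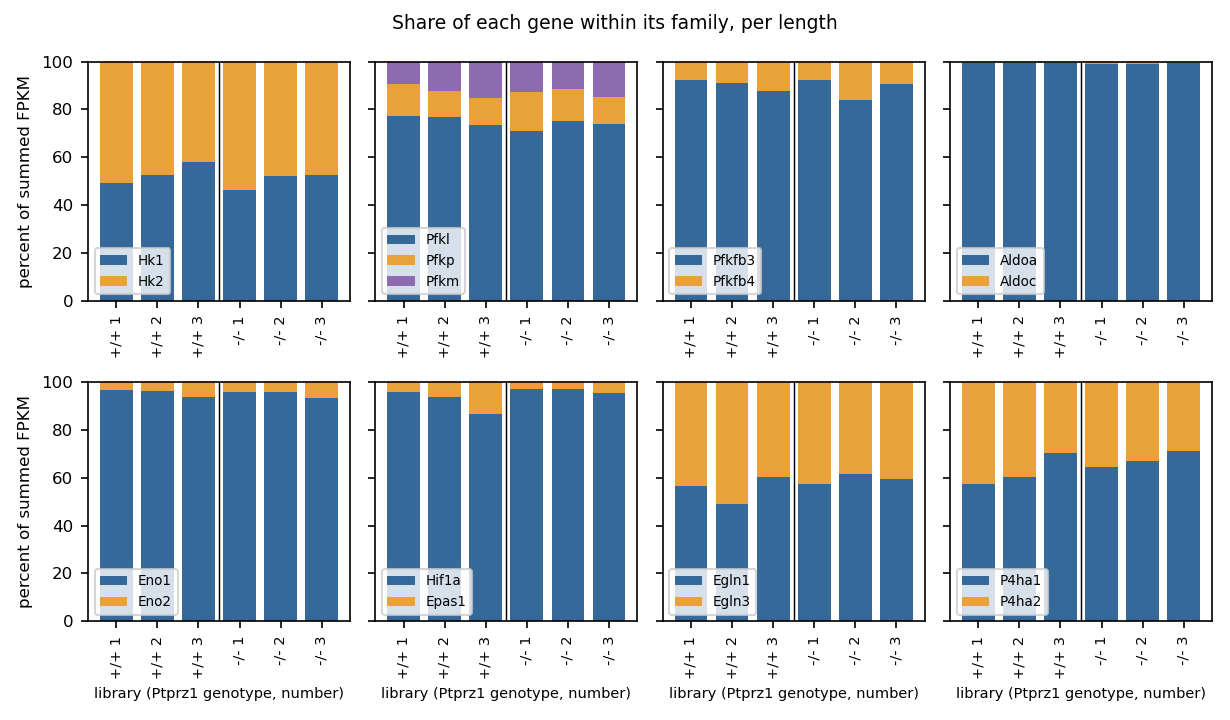
Share of each gene in the summed FPKM of its family (vertical axis, percent) in each library (horizontal axis, Ptprz1 genotype and library number). Hk1 and Hk2 are nearly even, Pfkl, Pfkfb3, Aldoa, Eno1 and Hif1a hold most of their families, and the Epas1 share is highest in Ptprz1+/+ 3, at 13.5%.

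Epas1 gave the largest difference of the set. It lies at chr17:86753907-86833410 on the plus strand, in the coordinates of the deposited table, which overlap the GENCODE M21 gene of the same ID on GRCm38, a build named in the submitters' processing notes. The 3 Ptprz1+/+ libraries measured 25.1, 53.2 and 63.1 CPM and the 3 libraries labelled Ptprz1-/- 16.6, 17.4 and 25.6 CPM, a mean of 47.1 ± 19.7 against 19.9 ± 5.02 (SD, n = 3 each). All but 1 of the values separated: Ptprz1-/- 3 lay just above Ptprz1+/+ 1. The log2 fold change was -1.25 (SE 0.37, 95% interval -2.13 to -0.37), with an unadjusted p of 0.0129 and an adjusted p of 1.00 in edgeR's test, so it did not pass. Over the alternatives the adjusted p ranged from 0.377 to 1.00, the sign was negative in every fit, and leaving out 1 library moved the value between -1.55 and -0.98. Without both libraries numbered 3, the difference was -1.21 (SE 0.41, unadjusted p = 0.0359, edgeR).

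Epas1 was also the only 1 of the 34 genes to be highest in the library numbered 3 within both genotypes, as 14.1% of all genes were. Those libraries also had the highest endothelial sums of their genotypes, 708 and 274 CPM against 88.0 to 139 in the other 4. Ptprz1+/+ 2, where Epas1 was second, had 99.1. Eng alone made up most of the sum outside the libraries numbered 3. It measured 101 and 59.4 CPM in Ptprz1+/+ 1 and 2, and 59.6 and 115 CPM in Ptprz1-/- 1 and 2. Of the 12 endothelial markers, Pecam1, Cdh5, Tie1, Erg and Egfl7 were lower in Ptprz1-/- 1 and 2 than in Ptprz1+/+ 1 and 2. Tek was higher there, and the others overlapped. Between the libraries numbered 3, each of the 12 was lower in Ptprz1-/-. The part of endothelial content in the level of Epas1, or in its difference between genotypes, was not tested. Hif1a (HIF-1 alpha), the subunit found in most cell types, was far more even, at 519, 688 and 359.6 CPM in Ptprz1+/+ 1 to 3 and 515, 495 and 462 CPM in Ptprz1-/- 1 to 3. The 3 Ptprz1-/- values lay within the Ptprz1+/+ range, with a log2 fold change of -0.090 (SE 0.25). Per length, Epas1 made up 4.13, 6.43 and 13.5% of the summed FPKM of both subunits in Ptprz1+/+ 1 to 3 and 2.78, 3.03 and 4.70% in Ptprz1-/- 1 to 3, and again only Ptprz1-/- 3 and Ptprz1+/+ 1 crossed.

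The prolyl hydroxylases had their extremes in the same libraries as most enzymes. Egln1 (PHD2), the main oxygen sensor, measured 130.5, 171 and 79.1 CPM in Ptprz1+/+ 1 to 3 and 133, 159 and 106 CPM in Ptprz1-/- 1 to 3, with a log2 fold change of 0.068 (SE 0.30). Egln3 (PHD3), itself induced by low oxygen, measured 76.1, 135 and 39.2, and 74.4, 75.4 and 54.0 CPM, with -0.30 (SE 0.43). Both were lowest in the libraries numbered 3 and highest in Ptprz1+/+ 2, and the genotypes overlapped. Egln1 took 48.9% to 61.6% of their summed FPKM, least in Ptprz1+/+ 2.

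The hypoxia-response genes had the widest spread of the roles, with a median coefficient of variation of 41.0%. Adm, which encodes the vessel-relaxing peptide adrenomedullin, measured 269, 107 and 623 CPM in Ptprz1+/+ 1 to 3 and 102, 468 and 393 CPM in Ptprz1-/- 1 to 3, a 6.10-fold range. It was highest in Ptprz1+/+ 3 and near 100 CPM in 1 library of each genotype, Ptprz1+/+ 2 and Ptprz1-/- 1, so the means differed little (333 ± 264 and 321 ± 193 CPM) and the log2 fold change of -0.052 had an SE of 0.76. Without both libraries numbered 3 it was 0.60.

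Ndrg1, a stress-response gene that low oxygen raises in many cells, had the largest positive difference. It measured 167, 77.2 and 64.2 CPM in Ptprz1+/+ 1 to 3 and 242, 171 and 93.8 CPM in Ptprz1-/- 1 to 3. In each genotype library 1 was highest and library 3 lowest, and Ptprz1+/+ 1 lay above 1 of the Ptprz1-/- libraries, so the groups overlapped. The log2 fold change was 0.72 (SE 0.47, unadjusted p = 0.177, edgeR), and leaving out 1 library gave 0.37 to 1.26.

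Car9, the carbonic anhydrase of the cell surface that is among the sharpest markers of hypoxia, was low, at 9.85, 7.04 and 2.21 CPM in Ptprz1+/+ 1 to 3 and 8.81, 4.39 and 4.23 CPM in Ptprz1-/- 1 to 3. It did not separate the genotypes (log2 fold change -0.13, SE 0.58). Ankrd37 was the lowest of the set per length, at a median of 1.61 FPKM, and ranged from 0.846 to 2.91 CPM; its exons overlap those of 2 genes on the other strand.

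The prolyl 4-hydroxylases P4ha1 and P4ha2, which prepare collagen for folding, measured 631, 391 and 389.8 and 355, 194 and 124 CPM in Ptprz1+/+ 1 to 3. In Ptprz1-/- 1 to 3 they measured 545, 487 and 393 CPM (P4ha1) and 229, 182 and 119.8 CPM (P4ha2). The P4ha1 share of their summed FPKM was largest in the libraries numbered 3, at 70.4% and 71.3%, against 57.3% to 66.9%. Their log2 fold changes were 0.014 (SE 0.25) and -0.34 (SE 0.42). The mitophagy receptor Bnip3 (138 to 335 CPM), the Myc antagonist Mxi1 (20.7 to 44.9 CPM) and the mitochondrial protein Higd1a (59.9 to 132 CPM) were all lowest in the libraries numbered 3, with log2 fold changes of -0.19, -0.028 and -0.15 (SE 0.36, 0.31 and 0.34).

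**Figure D4:**
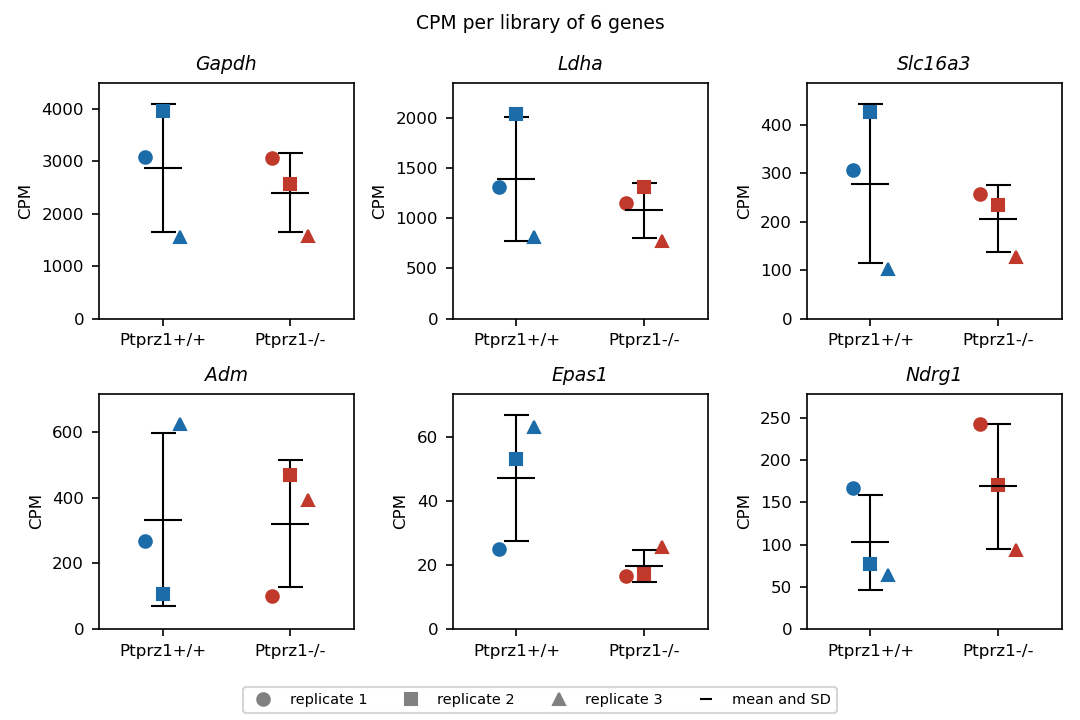
CPM (vertical axes, from 0) of 6 genes in the 3 libraries of each genotype, with the mean and SD as bars and the symbol giving the library number. Gapdh, Ldha and Slc16a3 are lowest in library 3 of both genotypes, Adm spans 102 to 623 CPM with no separation, Epas1 is lower in the libraries labelled Ptprz1-/- except for 1 crossing, and Ndrg1 overlaps.

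A further list of 42 genes of the same pathways held 41 in the table and 39 that passed the filter. Of these, 0 had an adjusted p under 0.05 in edgeR's test and 2 (5.13%) an unadjusted p under 0.05, beside 2.69% of all genes. DESeq2 also called 0. The drop in the libraries numbered 3 was seen in 13 of the 39 (33.3%), against 28 of the 34 above (82.4%) and 16.3% of all genes. Pgm1 (the symbol as deposited) measured 24.7, 30.6 and 27.6 CPM in Ptprz1+/+ 1 to 3 and 19.9, 21.4 and 21.7 CPM in Ptprz1-/- 1 to 3. Its groups did not overlap (log2 fold change -0.40, SE 0.14, unadjusted p = 0.0262, edgeR). Angptl4, a secreted inhibitor of lipoprotein lipase, measured 122, 111 and 71.9, and 30.8, 57.4 and 72.3 CPM, where Ptprz1-/- 3 crossed Ptprz1+/+ 3 (log2 fold change -0.93, SE 0.35, unadjusted p = 0.0352, edgeR).

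Of the remaining genes with the 5 smallest p-values, Stc1, which encodes the hormone stanniocalcin, measured 41.5, 43.9 and 88.0, and 8.19, 30.4 and 40.2 CPM, again without overlap (log2 fold change -1.14, SE 0.59, unadjusted p = 0.0989, edgeR). The repressor Bhlhe40 (log2 fold change 0.45, SE 0.23) and the lactate transporter Slc16a1 (log2 fold change 0.36, SE 0.19) had higher means in Ptprz1-/- and overlapped. The 3 Ptprz1-/- libraries were all lower in 2 of the 39 genes, Pgm1 and Stc1, beside 3.73% of all genes, and all higher in 1, beside 3.55%. That gene was Egln2, a prolyl hydroxylase, named after its values were seen, at 78.9, 83.1 and 66.1 CPM in Ptprz1+/+ 1 to 3 and 86.5, 92.2 and 83.7 CPM in Ptprz1-/- 1 to 3 (log2 fold change 0.20, SE 0.13, unadjusted p = 0.164, edgeR). Each of the genes named from this list had an adjusted p of 1.00 in edgeR's test.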

How the data were processed

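Lung microvascular endothelial cells were sequenced in 3 isolations per genotype. The deposited table holds, per gene, read counts made by the authors (whole numbers, not normalized) and FPKM values, which the authors derived from the same counts by gene length and library total. The submitters' processing notes name STAR, HTSeq, TopHat, DESeq2, edgeR, GRCm38 and mm10, with no role for each. The authors' own comparison columns (fold changes and p-values), and their 3 lists of called genes, were not used. Strand use in counting is not given in the sources used here.

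Counts were filtered with filterByExpr, scaled by TMM and tested with edgeR 4.0.16 (R 4.3.3; quasi-likelihood, genotype as the only term, Benjamini-Hochberg over 13609 genes, threshold 0.05); limma 3.58.1 and DESeq2 1.42.0 were alternatives, with other filters and scalings, each library left out, and a replicate block. The SE was worked back from that test, as the absolute log2 fold change over the square root of its F statistic. The 95% intervals used this SE and the t distribution. The steps were run on simulated data, drawn gene by gene with no shift shared by a whole library. Limits were set there only on the fitted fold changes, so the calls under such shared shifts were not tested. Levels are CPM on TMM-scaled sizes, and FPKM between genes. Library totals were 14496881 to 17709663. P-values rest on the spread between isolations, with each gene's spread drawn toward that of other genes, and do not measure the spread between mice. Copies were found with minimap2 2.31 (at least 100 bases and 95% identity).

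All 34 genes are reported. Values in every library are given for those of the 34 whose groups do not overlap (none), the 8 with the smallest p, the 3 with the highest and the 3 with the lowest spread, and isoenzyme families; the other pathway genes are named when among the 5 with the smallest p, and Egln2 was added after its values were seen. The genes and lists were chosen with earlier results of these data known.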

Additional observations from a re-analysis of the deposited data

How the results depend on the processing

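No setting called any of the 34 genes at an adjusted p under 0.05. Over all genes, DESeq2 with its own size factors called 30 and edgeR's likelihood ratio test 17, against 0 in the quasi-likelihood test, and these 30 and 17 included none of the 34. The cause was not tested. The median log2 fold change of the 34 was lowest, at -0.37, without Ptprz1+/+ replicate 3 and highest, at 0.055, without Ptprz1+/+ replicate 2. It was -0.25 without both libraries numbered 3, an alternative chosen after seeing the data.

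With 1 library left out, the log2 fold change kept its sign in all 6 fits for Hk1, Pfkl, Aldoc, Eno1, Epas1 and Ndrg1 and crossed 0 for the other 28: in 19 genes without Ptprz1+/+ replicate 2, 11 without Ptprz1-/- replicate 3, 8 without Ptprz1+/+ replicate 1, 5 without Ptprz1-/- replicate 2, 4 without Ptprz1+/+ replicate 3 and 3 without Ptprz1-/- replicate 1. The lowest and highest values were, for the log2 fold change: Slc2a1 -0.23 to 0.22, Hk2 -0.39 to 0.060, Gpi1 -0.38 to 0.28, Pfkp -0.35 to 0.18, Pfkm -0.33 to 0.050, Pfkfb3 -0.32 to 0.17, Pfkfb4 -0.11 to 0.39, Aldoa -0.30 to 0.15, Tpi1 -0.56 to 0.079, Gapdh -0.55 to 0.051, Pgk1 -0.56 to 0.041, Pgam1 -0.30 to 0.21, Eno2 -0.047 to 0.13 and Pkm -0.60 to 0.19. For the remaining genes they were: Ldha -0.63 to 0.024, Slc16a3 -0.83 to 0.014, Pdk1 -0.51 to 0.051, Hif1a -0.30 to 0.16, Egln1 -0.18 to 0.34, Egln3 -0.63 to 0.24, Bnip3 -0.49 to 0.059, Adm -0.48 to 0.77, Ankrd37 -0.38 to 0.64, Car9 -0.55 to 0.33, P4ha1 -0.10 to 0.29, P4ha2 -0.63 to 0.16, Mxi1 -0.25 to 0.34 and Higd1a -0.41 to 0.10. In limma voom the sign also turned for Pgam1 (0.015), Adm (0.017), Ankrd37 (0.10), Car9 (0.022) and Mxi1 (0.019), and without both libraries numbered 3 for Eno2 (-0.060), Egln1 (-0.041) and Adm (0.60). None of these was called in either direction.

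The numbers 1 to 3 do not mark a shared isolation in the labels, so they were not taken as pairs. Deviations from the genotype means correlated across genes at 0.45, -0.061 and 0.52 for numbers 1, 2 and 3. Between unlike numbers the correlation ran from -0.57 to 0.092, so the values do not decide whether numbers 1 and 3 were paired. With the replicate block, 0 genes and 0 of the 34 were called, 690 genes rather than 366 and 3 of the 34 rather than 1 had an unadjusted p under 0.05 (Epas1 at 0.00517, Ndrg1 at 0.0102 and Aldoc at 0.0352, edgeR), and the sign turned for Pgam1 (0.0074), Ankrd37 (0.099), Car9 (0.0063) and Mxi1 (0.027). Libraries numbered 1 and 3 correlated best with their own number, and those numbered 2 did not.

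Each genotype had 3 isolations, each pooled from several mice, and the 95% intervals of 18 of the 34 genes reach beyond a 2-fold change.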
